A study of Mus musculus with 2 samples.

Results

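MiR-103 and miR-107 are a pair of nearly identical miRNAs. Their members were taken by name: the array probes called miR_103 and miR_107 once the species prefix is removed. This gave 2 of the 377 probes other than controls, both with a human prefix and each with 4 spots on each array. Both matched mouse miRNA genes by name and are 2 of the 256 mouse miRNAs kept with 1 probe each. The samples were total RNA of C3H10T1/2, an established mouse line of multipotent mesenchymal cells that serves as a model of early fat, bone and cartilage differentiation. One group received BMP7, a secreted bone morphogenetic protein, at 3.3 nM. The other received vehicle, and both were kept for 3 days. Each group was 1 sample on 1 array, so no difference between groups has a replicate check and no p-value is given. The number of arrays limits the precision, and errors below are over the 4 spots of a probe.

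MiRNAs are short RNAs that pair with messenger RNAs through a seed near their 5′ end and lower the output of those messages. MiR-103 and miR-107 come from introns of pantothenate kinase genes, whose products make coenzyme A. In mouse liver and fat they are known as negative regulators of insulin sensitivity, and miR-103 is known to promote fat cell differentiation in mouse preadipocyte culture.

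The mature sequences below show how little separates the molecules that the probes were made to tell apart. They are given 5′ to 3′ from RefSeq (GRCm38.p6), with the seed, bases 2 to 8, in capitals.
miR-103-3p: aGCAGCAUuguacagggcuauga
miR-107-3p: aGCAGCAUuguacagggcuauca
Both have 23 bases and differ by the single substitution G22C, counted from 1 at the 5′ end with the base of miR-103-3p first. That base lies outside the seed, which is the same in both. Of 1679 mature mouse miRNA names in the RefSeq table, these 2 alone have this seed. A probe for one may also read the other, and how far the array separates them was not tested.

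MiR-103-3p is made from 2 genes and miR-107-3p from 1, so a miR-103 probe reads the summed output of both genes. The hairpins are shown with the mature 3p strand in capitals.
Mir103-1: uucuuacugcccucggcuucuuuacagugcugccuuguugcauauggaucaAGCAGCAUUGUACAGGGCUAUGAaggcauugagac
Mir103-2: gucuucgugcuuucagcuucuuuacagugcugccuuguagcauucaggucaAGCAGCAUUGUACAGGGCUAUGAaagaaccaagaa
Mir107: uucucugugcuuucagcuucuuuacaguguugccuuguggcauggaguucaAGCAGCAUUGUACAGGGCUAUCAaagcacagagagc
In GRCm38.p6, Mir103-1 lies at chr11:35782396-35782481 on the plus strand within Pank3. Mir103-2 lies at chr2:131288052-131288137 on the plus strand within Pank2. Mir107 lies at chr19:34820687-34820773 on the minus strand within Pank1. The mature strand takes positions 52 to 74 of each hairpin.

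Total RNA was labelled with the dye Cy3, which is read in the green channel of the scanner. The arrays were also scanned in a red channel, and no source used here says what that channel holds. Cy3 brightness was weak relative to the slide around the spots, where the median local background was 4649 intensity units with BMP7 and 3756 with vehicle. To pass, a spot had to exceed its own local background by 948 units with BMP7 or by 1152 with vehicle, and detection of a miRNA asked for at least 2 of its 4 spots. By this rule 41 mouse miRNAs were detected with BMP7 and 58 with vehicle, 65 on 1 or both arrays and 34 on both. All 7 mesenchymal markers listed were among the 65, miR-143 with vehicle alone. Of the other lists, 1 of 6 was detected for blood, 1 of 4 for muscle, 1 of 5 for epithelium and 1 of 2 for liver. For neurons it was 0 of 4 and for endothelium 0 of 1. Over all mouse miRNAs, 65 of 256 were detected. The scanner logged a green laser power of 3.17 for BMP7 and 2.45 for vehicle.

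In the Cy3 channel neither miRNA differed between BMP7 and vehicle by more than the spread of its spots. The Cy3 brightness of miR-103, as scanned, was 5668, 5966, 5904 and 6369 units in spots 1 to 4 with BMP7, and 5812, 6162, 6038 and 5706 with vehicle. That of miR-107 was 5553, 5131, 5514 and 5145 with BMP7, and 5722, 5687, 5286 and 4833 with vehicle. For both miRNAs the spots of the 2 arrays overlapped, and no array was the brighter one throughout. The means were 5977 ± 291 with BMP7 and 5929.5 ± 208 with vehicle for miR-103 (SD, n = 4 spots), and 5336 ± 229 and 5382 ± 416 for miR-107.

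The local background under these spots varied more than their brightness. The gap was widest for miR-103 with vehicle, with SDs of 1783 for background and 208 for brightness. It was narrowest for miR-107 with BMP7, at 258 and 229. For miR-103 it was 5393 and 5417 units in spots 1 and 2 with BMP7 and 4411 and 4491 in spots 3 and 4. With vehicle it was 2832 and 1917 in spots 1 and 2, and 5133 and 5618 in spots 3 and 4. The upper pair of spots thus had the higher background with BMP7 and the lower pair had it with vehicle. For miR-107 the background was 4910, 5072, 4601 and 4525 with BMP7, and 3816, 3197, 4593 and 4362 with vehicle. Here the vehicle array was lower in the upper pair, while in the lower pair the arrays were close to each other.

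**Figure D1:**
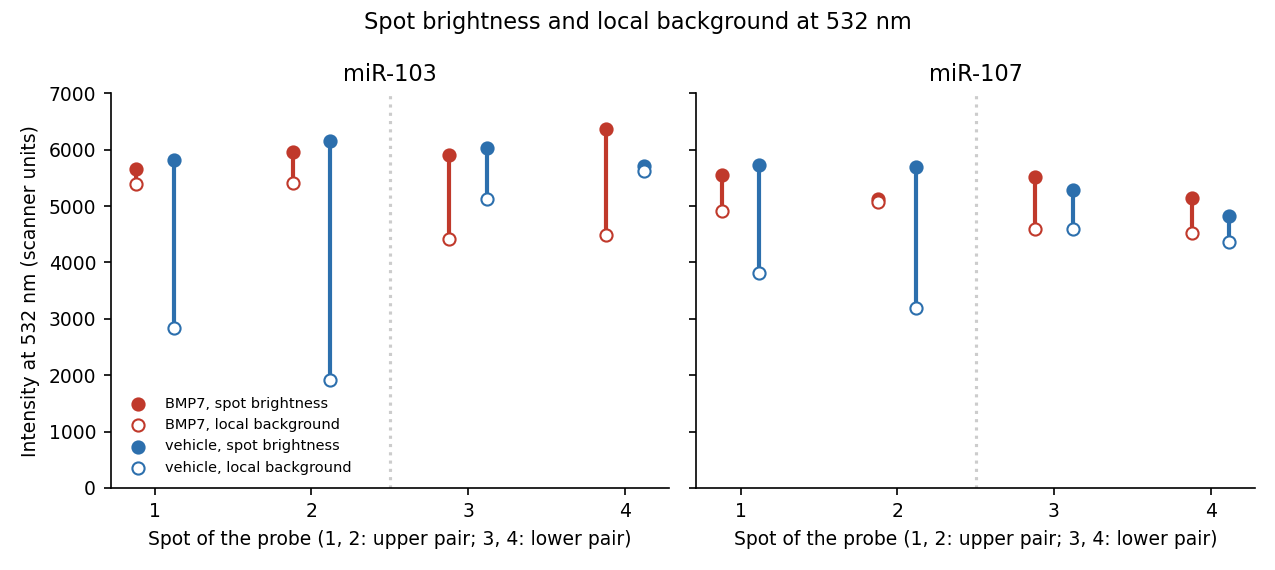
Cy3 brightness (filled) and local background (open), in scanner units, for each of the 4 spots of miR-103 and miR-107 on the BMP7 and vehicle arrays; a line joins each spot to its background. The filled points lie between 4833 and 6369 throughout, while the backgrounds run from 1917 to 5618.

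Brightness minus local background therefore differed between the pairs of spots. For miR-103 it was 275 and 549 units in the upper pair with BMP7 against 2980 and 4245 with vehicle, and 1493 and 1878 in the lower pair with BMP7 against 905 and 88 with vehicle. On each array 2 of its 4 spots passed the detection rule, the lower pair with BMP7 and the upper pair with vehicle. MiR-107 had 643, 59, 913 and 620 units with BMP7, where no spot passed, and 1906, 2490, 693 and 471 with vehicle, where the upper pair passed. MiR-103 was thus detected on both arrays and miR-107 on the vehicle array alone.

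After background correction and quantile normalization, the log2 level of miR-103 was 10.91, 11.09, 11.66 and 11.83 with BMP7 and 12.02, 12.40, 11.05 and 10.33 with vehicle. The BMP7 spots lay inside the range of the vehicle spots. The log2 change of miR-103, BMP7 minus vehicle, was -0.080 ± 0.52 (SE over 4 spots on each array), or 1.06-fold lower. In total RNA, fewer cells with a miRNA and less of it per cell cannot be told apart. The log2 level of miR-107 was 11.16, 10.72, 11.35 and 11.14 with BMP7 and 11.57, 11.80, 10.89 and 10.72 with vehicle. Its spots overlapped as well, and its log2 change was -0.15 ± 0.29. As miR-107 was not well above background with BMP7, its 1.11-fold lower level is a fitted value and not a bound. It does not cover the spread of the spots. With scaling on the Cy3 control spots in place of quantile normalization both changes turned positive, at 0.13 for miR-103 and 0.050 for miR-107. For reference, 8 of the 65 detected miRNAs (12.3%) were at least 2-fold apart between arrays, 3 of them higher with BMP7 (4.62%) and 5 lower (7.69%), and for 27 (41.5%) the spots of one array did not overlap those of the other. Neither miR-103 nor miR-107 was in either count.

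Spots 1 and 2 of miR-103 and of miR-107 lie side by side in the upper rows of a block and spots 3 and 4 side by side in the lower rows. Over all probes other than controls, 658 of 754 such pairs of spots were adjacent. The mean over 4 spots combined changes of opposite sign in these pairs. In the upper pair of spots the log2 change was -1.21 for miR-103 and -0.75 for miR-107. In the lower pair it was 1.05 for miR-103 and 0.44 for miR-107. Opposite signs in spots 1 and 2 against spots 3 and 4 were found for 18 of the 65 detected miRNAs (27.7%), and 15 (23.1%) were lower with BMP7 in spots 1 and 2 and higher in spots 3 and 4, as both of these miRNAs were. The gap between the pairs, 2.26 for miR-103 and 1.19 for miR-107 on the log2 scale, ranked 3 and 8 among the 65.

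The spots of both miRNAs lie in block 7 of the 16 printed blocks, and the same pattern was common, though not general, in that block. Over all its spots the median local background in the Cy3 channel with vehicle was 3296 units in the upper rows and 4594 in the lower rows, a step of 1297. In the other 15 blocks of the vehicle array that step lay between -429 and 74 units. With BMP7 the step in block 7 was 104 units. The 22 other probes of block 7, most of them not detected, had a median log2 change of -0.50 in their upper pair and 0.71 in their lower pair. Of these, 12 were lower with BMP7 in the upper pair and higher in the lower pair, and 0 the other way round. Over all 256 mouse miRNAs, detected or not, 51 showed that order of signs and 34 the reverse. Their medians were -0.077 in spots 1 and 2 and 0.037 in spots 3 and 4. Among the 6 other detected miRNAs of the block, 3 showed this order. Other treatments of the background gave these log2 changes over 4 spots. With no background correction miR-103 was at -0.058 and miR-107 at -0.11. With the median background of the block in place of the local one, an alternative chosen after the data were seen, they were at -0.073 and -0.12. With plain subtraction of the local background they were at 1.06 and -0.23.

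**Figure D2:**
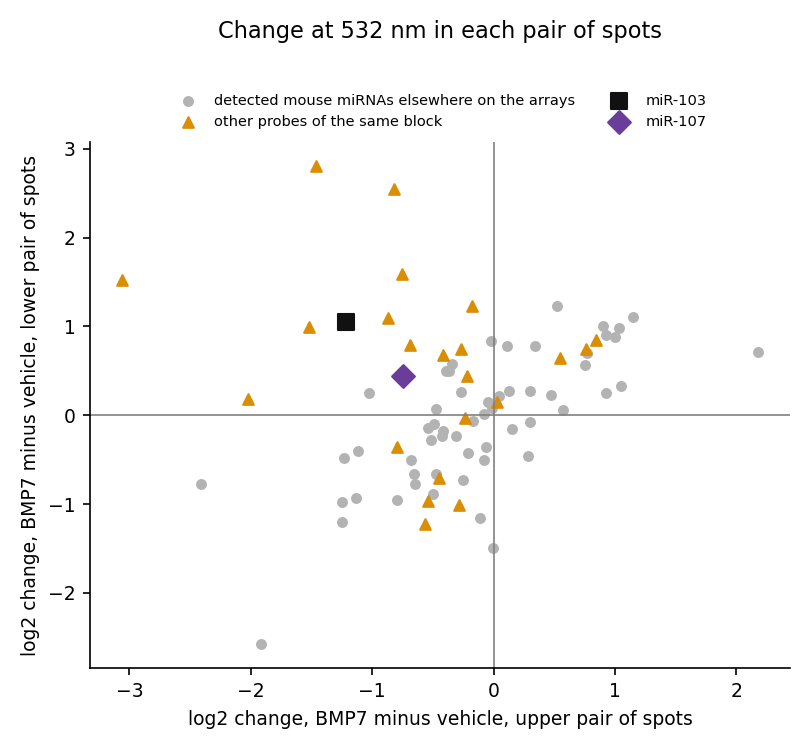
Log2 change in the Cy3 channel, BMP7 minus vehicle, in the upper pair of spots (horizontal axis) and the lower pair (vertical axis); circles are detected mouse miRNAs elsewhere on the arrays, triangles the 22 other probes of block 7, the square miR-103 and the diamond miR-107. Both members lie at upper left, at -1.21 and 1.05 and at -0.75 and 0.44, with 12 of the 22 block neighbours.

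The spread of the spots was wide for miR-103. Its SD on the vehicle array was 0.94 on the log2 scale, and 3 of the 58 miRNAs detected there had a larger one; the median over the 58 was 0.25. With BMP7 its SD was 0.44, against a median of 0.23 over 41 detected miRNAs. For miR-107 the SD was 0.52 with vehicle and 0.27 with BMP7.

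The fitted log2 change of miR-103 minus that of miR-107 was 0.073 ± 0.60, less than the spread of the spots. As miR-107 was not well above background with BMP7, its fitted change is uncertain, and this difference does not show that the 2 miRNAs changed alike. It was -0.47 in the upper pair of spots and 0.61 in the lower pair. Of 43 pairs of mouse probes whose mature sequences differ at no more than 2 positions in one arm of the hairpin, 7 had both members detected on at least 1 array. One was miR-103 with miR-107, and the others were 6 pairs of the let-7 family, which share members and were detected on both arrays. In the 6 let-7 pairs the absolute difference of the log2 changes ran from 0.20, for let-7c and let-7e, to 0.54, for let-7b and let-7c. The value for miR-103 and miR-107 is not ranked among them, since miR-107 was detected with vehicle alone. The arm compared need not be the one a probe reads. Among the 43, miR-129 with miR-129-3p, miR-181a with miR-213, miR-189 with miR-24 and miR-299-5p with miR-298 counted as pairs with 0 differing bases. Probes were matched to genes by name, so these pairs need not be near-identical miRNAs. Where both probes read the compared arm, they may read each other's miRNAs.

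The red channel was dimmer with BMP7 for both miRNAs. MiR-103 read 10310, 11217, 10605 and 14615 units with BMP7 and 16537, 18645, 12921 and 16255 with vehicle. MiR-107 read 12401, 10140, 13144 and 12686 with BMP7 and 19135, 17195, 13107 and 13646 with vehicle. In each case the brightest BMP7 spot lay above the dimmest vehicle spot, so the groups overlapped, and the upper pair stood further apart than the lower pair. The means were 11687 ± 1988 and 16089.5 ± 2366 for miR-103 (SD, n = 4 spots), a log2 change of -0.46 ± 0.16. For miR-107 they were 12093 ± 1337 and 15771 ± 2884, a change of -0.37 ± 0.16. By pair, the red change was -0.71 and -0.22 for miR-103 and -0.69 and -0.051 for miR-107, upper pair first.

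**Figure D3:**
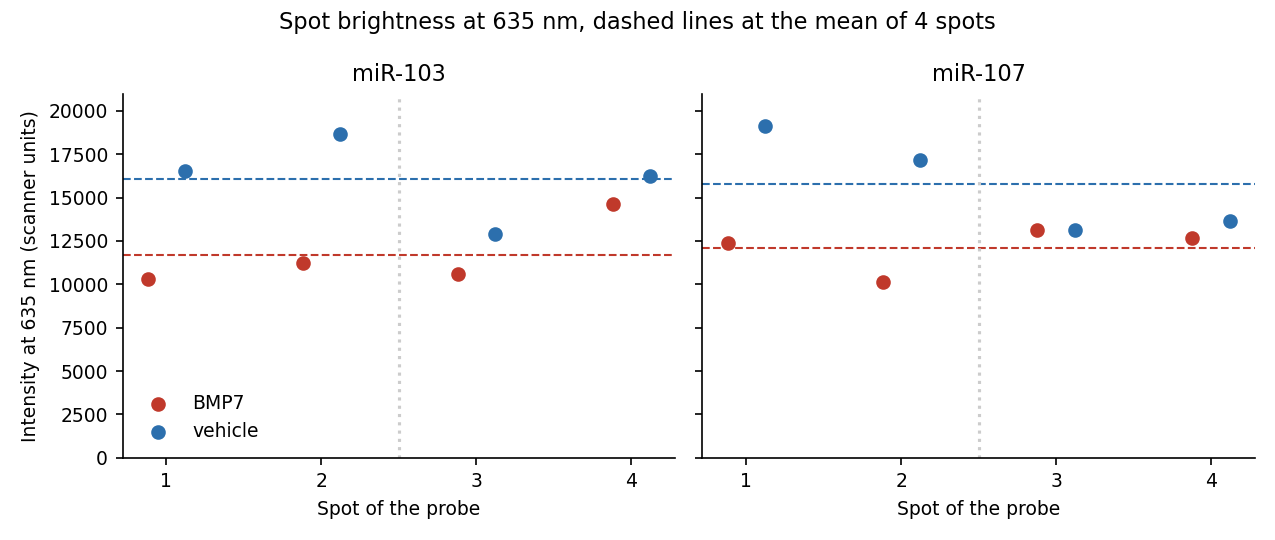
Red brightness, in scanner units with no background subtracted, for the 4 spots of miR-103 and miR-107; dashed lines mark the mean of the 4 spots on each array. The vehicle means, 16089.5 and 15771, lie above the BMP7 means, 11687 and 12093, and the arrays come closest in spots 3 and 4.

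Lower red values were common on the BMP7 array: 181 of the 256 mouse miRNAs (70.7%) were dimmer there, with a median log2 change of -0.15. A larger decrease than that of miR-103 was found for 44 of the 256 and larger than that of miR-107 for 68. Of the 256, 1 (0.391%) passed 2-fold in either direction. Among the 29 with a mean above 10000 red units, which include both members, the median was -0.25, and 5 and 7 were lower than miR-103 and miR-107. With quantile normalization of this channel the changes were -0.17 for miR-103 and -0.10 for miR-107.

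In the authors' deposited table both miRNAs are higher with BMP7, opposite in sign to the corrected Cy3 values. The authors' deposited table gives miR-103 as 0.0296 with BMP7 and 0.0183 with vehicle, 1.61-fold apart. The authors' deposited table gives miR-107 as 0.0254 and 0.0169. On the log2 scale the differences are 0.69 for miR-103 and 0.58 for miR-107, while the median over the 339 array probes of the authors' deposited table is 0.54, with 314 of them (92.6%) higher with BMP7. There 105 probes exceeded miR-103 and 148 exceeded miR-107, and neither was among the 27 (7.96%) at least 2-fold apart. Against the median of that table miR-103 stood at 0.15 and miR-107 at 0.040.

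The deposited values could be taken apart into their parts. They were rebuilt within 0.1% for both miRNAs on both arrays as the mean over the spots of Cy3 brightness over red brightness, divided by the same mean for the 16 control spots named Control_1. For miR-103 that ratio was 0.519 with BMP7 and 0.375 with vehicle, and for miR-107 it was 0.445 and 0.347. On the log2 scale, Cy3 brightness as scanned contributed 0.011 for miR-103 and -0.010 for miR-107. The lower red brightness contributed 0.46 and 0.37. The Control_1 spots contributed 0.22 to every probe, as their ratio was 17.5 with BMP7 and 20.5 with vehicle. Their red mean was 248 units with BMP7 and 196 with vehicle. Both means lay below the median local red background of the array, 342 units with BMP7 and 293 with vehicle. The parts sum to 0.70 and 0.59, beside 0.69 and 0.58 in the authors' deposited table. Over the table's array probes the median Cy3 part was 0.14 and the median red part also 0.14. For miR-103 and miR-107 the Cy3 part was thus the smallest in size of the 3 parts.

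The seeds of the miR-15 and miR-16 group, known for restraining the cell cycle, overlap that of miR-103 and miR-107 with an offset. Bases 1 to 7 of miR-103-3p recur as bases 2 to 8 of miR-15a, miR-15b, miR-16, miR-195a, miR-322 and miR-497a, and the first 6 of them recur in miR-503. The sequences of 4 relatives measured here show this offset, with bases 2 to 8 in capitals.
miR-15b-5p: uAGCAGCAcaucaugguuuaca
miR-16-5p: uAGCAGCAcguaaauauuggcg
miR-497a-5p: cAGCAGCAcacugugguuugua
miR-503-5p: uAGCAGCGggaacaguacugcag
Of the 8 probes of this list, 5 were detected on an array, and their median log2 change was 0.068 by fitted values, beside -0.030 over the 65 detected miRNAs; with no normalization the median of the 5 was -0.064. MiR-16 was at 0.59 ± 0.27 and miR-15b at 0.086 ± 0.41, both with overlapping spots. MiR-503, detected with vehicle alone, was 2.16-fold lower with BMP7 by fitted values, with its BMP7 spots all below its vehicle spots. MiR-424 was 1.09-fold lower by fitted values, with overlapping spots. In the authors' deposited table the log2 folds of miR-503 and miR-424 were 0.076 and 0.11, opposite in sign. MiR-497 was detected with vehicle alone, and no fold is given. By fitted values 1 of the 5 was at least 2-fold lower and 0 at least 2-fold higher. Over the 65 detected miRNAs, 5 (7.69%) were at least 2-fold lower and 3 (4.62%) higher. For miR-15a, miR-195 and miR-322 neither array was well above background. The bases of miR-424 were not compared with those of miR-103. Whether the miR-424 and miR-322 probes read the same miRNA was not tested, and their fitted changes were -0.12 and -0.85.

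Among 17 miRNAs listed for promoting fat cell formation, which include miR-103 and miR-107, 9 were detected. Of these 5 had positive and 4 negative fitted changes, beside 31 and 34 of the 65 detected miRNAs. Among the 9, 0 passed 2-fold, beside 8 of the 65 (12.3%). The median of the 9 was 0.0015, or -0.11 with no normalization, beside -0.030 over the 65 in the main setting. MiR-21, abundant in mesenchymal cells, was at 0.31 ± 0.12 with its BMP7 spots all above its vehicle spots. MiR-26a was at -0.40 ± 0.077 with its BMP7 spots all below. Detected with BMP7 alone were miR-30a-5p, miR-92 and miR-378. By fitted values miR-30a-5p was 1.66-fold and miR-92 1.58-fold higher, both with their BMP7 spots all above their vehicle spots. MiR-378 was 1.36-fold higher by fitted values, with overlapping spots. Detected with vehicle alone were miR-320, at least 1.21-fold lower, and miR-143, for which no fold is given. In the authors' deposited table the log2 folds of miR-26a and miR-320 were 0.56 and 0.82, opposite in sign. The median there over the detected miRNAs was 0.49.

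Among the miRNAs detected on both arrays, those nearest to miR-103 in log2 change were miR-138 at -0.091 ± 0.16, miR-33 at -0.030 ± 0.071 and miR-24 at -0.0073 ± 0.16. Nearest to miR-107 were miR-298 at -0.20 ± 0.13, let-7d at -0.21 ± 0.094 and again miR-138. This likeness is that of 1 difference between 2 arrays. By spots 1 and 2 and then spots 3 and 4, miR-24 was at -0.27 and 0.26, miR-298 at -0.48 and 0.074 and miR-33 at -0.078 and 0.017, the order of signs of miR-103 and miR-107. MiR-138 had the reverse order, 0.28 and -0.46, and let-7d was negative in both, at -0.061 and -0.36.

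**Figure D4:**
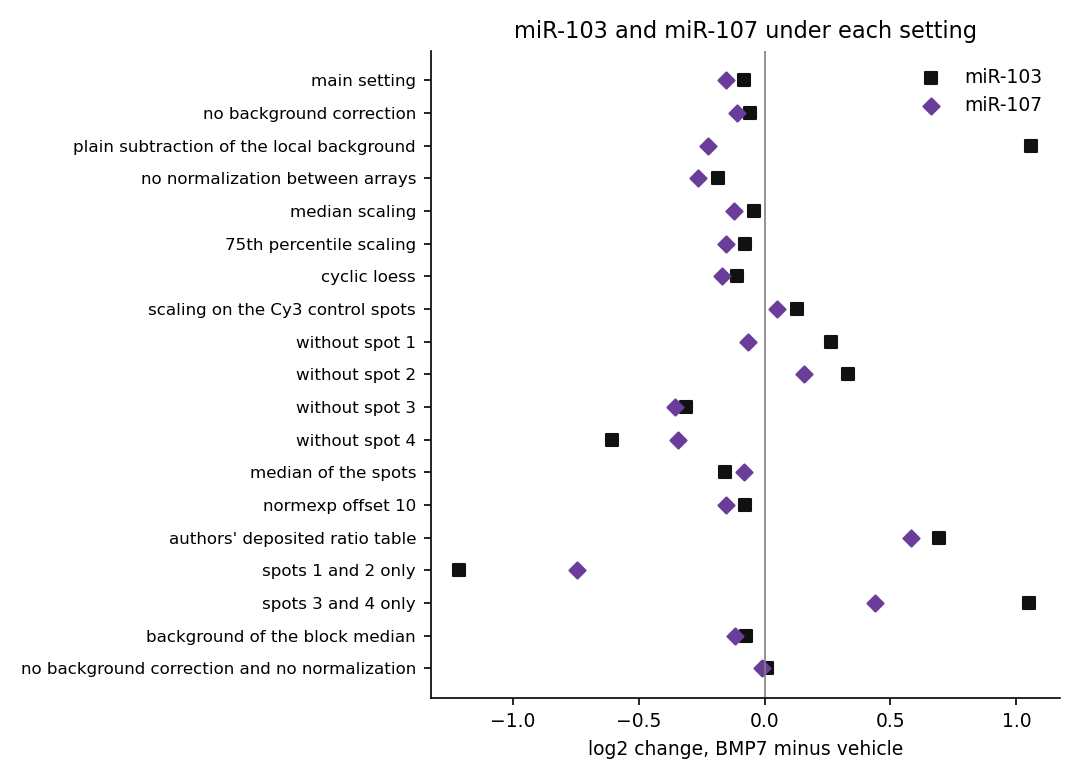
Log2 change, BMP7 minus vehicle, of miR-103 (squares) and miR-107 (diamonds) under the main setting and each alternative. Values fall on both sides of 0, from -1.21 with spots 1 and 2 to 1.06 with plain subtraction for miR-103, and from -0.75 to 0.58 for miR-107.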

How the data were processed

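Total RNA of the 2 samples was hybridised to 1 array each. Per the file headers, the scanner exports (GenePix) give intensity as the mean pixel value of a spot, with neither normalization nor background subtraction. A score pair, per the file headers the summed background-subtracted means of both wavelengths and the ratio between them, gave each spot's local background by solving for it. The authors' deposited tables hold a ratio of unstated definition; both tables agreed for all array probes, and the column medians were 0.0776 with BMP7 and 0.0509 with vehicle over all rows.

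Cy3 intensity was corrected with normexp (offset 50, limma 3.58.1, R 4.3.3), control spots were removed, arrays were quantile normalized and log2 values averaged over spots; tables used Python 3.11.15, numpy 2.4.6 and pandas 2.3.3. Red intensity was used as scanned. The detection margin was 2 SD of an array's local backgrounds, needed in at least 2 spots, a rule set after the exports had been seen. For a miRNA detected on 1 array, the "at least" fold divides by whichever is larger on the other array, its own mean or the lowest detected mean. Where its own mean was larger, this equals the fitted fold, which is then given by fitted values and without "at least". Neither kind of fold covers the spread of the spots, and none is called a bound where the spots of the arrays overlapped. The steps were run on simulated arrays to check the direction of changes given to miRNAs above background. Both simulated arrays had the background of the vehicle array, so backgrounds that differ between arrays were not tested. A mouse miRNA name was found for 279 of 377 probes, and 256 remained with 1 probe per name, taking a mouse prefix first. No test across samples was possible with 1 array per group. The text names both members, for each the 3 miRNAs detected on both arrays of nearest change, list members detected on an array, and near-identical pairs with both members detected. Members, lists and tests were chosen with earlier results of these data known.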

Additional observations from a re-analysis of the deposited data

How the results depend on the processing

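No paired analysis was possible because there was a single array for each treatment. With Cy3 brightness so close to the local background, these arrays can show little for either miRNA. Except where an alternative's own construction shows it (fewer spots, fewer or more miRNAs counted), the cause of the shifts was not tested. Alternatives using 1 pair of spots, the block's median background, or neither correction nor normalization were added after the data were seen. MiR-103, at -0.080 in the main setting, was at 1.06 with plain subtraction, 0.13 with scaling on the Cy3 control spots, between -0.60 (without spot 4) and 0.33 (without spot 2) when 1 spot was left out, with 0.26 without spot 1 and -0.31 without spot 3, 0.69 in the authors' deposited table, -1.21 with spots 1 and 2 only, 1.05 with spots 3 and 4 only and 0.011 with neither correction nor normalization. MiR-107, at -0.15, was at 0.050 with scaling on the Cy3 control spots, 0.16 without spot 2 and between -0.36 and -0.066 without any other spot, 0.58 in the authors' deposited table, -0.75 with spots 1 and 2 only and 0.44 with spots 3 and 4 only. Their difference, 0.073, was 1.28 with plain subtraction, -0.26 without spot 4 and between 0.045 and 0.33 without any other spot, -0.076 with the median of the spots and -0.47 with spots 1 and 2 only. In the red channel both stayed below 0 in all 9 alternatives run for each, with miR-107 at -0.69 in spots 1 and 2 and -0.051 in spots 3 and 4. The median of the miR-15 and miR-16 relatives, 0.068, was -0.064 with no background correction, -0.79 with plain subtraction, -0.064 with no normalization, -0.0082 without spot 3, -0.094 without spot 4, up to 0.15 without spot 2, -0.17 with spots 1 and 2 only and -0.22 with the block's background. The median of the fat cell list, 0.0015, was -0.11 with no normalization, -0.0013 with 75th percentile scaling, -0.021 with cyclic loess, -0.080 for miRNAs detected on both arrays, -0.022 for all mouse probes and 0.44 with spots 3 and 4 only, between 0.034 and 0.25 with 1 spot left out, and 0.58 by the authors' deposited table. The count of miRNAs past 2-fold, 8, was 0 with no background correction, with or without normalization, 35 with plain subtraction, 2 in the authors' deposited table, 5 for miRNAs detected on both arrays, 30 for all mouse probes and 14 with spots 1 and 2 only. The median difference over near-identical pairs, 0.32 for the 7 pairs with miR-103 and miR-107 among them, stayed between 0.13 and 0.53 in 20 alternatives. Of these alternatives, 2 used other pairs. Pairs detected on both arrays, which leave out miR-103 with miR-107, gave 0.41. The 43 pairs of all mouse probes, some of which need not be near-identical miRNAs, gave 0.42.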

Other observations

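On the BMP7 array a step in the local Cy3 background of the size seen in block 7 of the vehicle array was found in block 12, with a median of 3215 units in the upper rows and 4683 in the lower rows. The same block on the vehicle array had 3380 and 3454. Neither miR-103 nor miR-107 has spots in block 12.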
